A study of Caenorhabditis elegans with 8 samples.

Results

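The genes described are 10 maternal regulators of cell fate that bind RNA in the Caenorhabditis elegans germline and early embryo. They were chosen by sequence name: pie-1 (Y49E10.14), pos-1 (F52E1.1), mex-1 (W03C9.7), mex-3 (F53G12.5), mex-5 (W02A2.7), mex-6 (AH6.5), oma-1 (C09G9.6), oma-2 (ZC513.6), spn-4 (ZC404.8) and gld-1 (T23G11.3). They are 10 of the 19983 protein-coding genes of the gene table used for names, and 4 of them are among the 8922 genes of the deposited table of calls. The study mapped RNA polymerase II by chromatin immunoprecipitation and sequencing (ChIP-seq) with an antibody to AMA-1, the largest subunit of the polymerase. Embryos of strain KW2309, whose genotype the labels do not describe, were taken from adults grown for 72 h and covered the 1-cell to the 350-cell stage. Control embryos received the empty RNAi vector L4440, and the others RNAi of sig-7, labelled as loss of sig-7. SIG-7 is a cyclophilin of the nucleus that also carries an RNA-binding motif. There were 2 ChIP and 2 input libraries for each condition, all from this strain and mixture of stages. The titles number the inputs 1 and 2, whereas both ChIP titles of a condition hold 1Ama. The labels therefore leave unclear whether the 2 ChIP replicates came from separate cultures.

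The measurement is a call. A gene is called in a condition (a value of 1) when broad peaks overlapped it by at least 250 bp or 45% of its length in both replicates, and has a 0 when at most 1 replicate had such an overlap. A gene absent from the table is "not listed" and is counted as called in neither condition. The replicates are already merged in these calls, so no value per library, no replicate error and no test of the difference between conditions could be given, and a change of call can rest on 1 replicate crossing the peak threshold. A call says nothing about the amount of polymerase or of RNA.

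In C. elegans much of early patterning rests on mRNAs that the mother loads into the oocyte. RNA-binding proteins such as these 10 decide when and in which cell those mRNAs are translated or destroyed. PIE-1, POS-1, MEX-1, MEX-5, MEX-6, OMA-1 and OMA-2 carry tandem CCCH zinc fingers, MEX-3 and GLD-1 have KH domains (that of GLD-1 in a STAR domain), and SPN-4 has an RNA recognition motif. Some of them also act on transcription itself: PIE-1 keeps the germline blastomeres silent by interfering with phosphorylation of the polymerase tail, and OMA-1 and OMA-2 hold the transcription factor subunit TAF-4 in the cytoplasm of early blastomeres.

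The calls are given by where each member acts, a grouping made after the calls were seen, so no pattern by role is read from it. The 3 regulators of the germ lineage, pie-1, pos-1 and mex-1, were all called in sig-7 RNAi embryos, and pie-1 and pos-1 in control embryos as well. The 3 genes that act in anterior cells, mex-3, mex-5 and mex-6, were not listed. The oocyte and zygote regulators oma-1, oma-2 and spn-4 were not listed either, and gld-1, a translational repressor of the adult germline, was called in sig-7 RNAi embryos alone. Counted together, 2 of 10 members were called in control, where 22.8% of protein-coding genes were (95% exact interval over genes 22.3 to 23.4). In sig-7 RNAi embryos 4 of 10 were called, beside 23.9% of protein-coding genes (23.3 to 24.5). Members called in both conditions numbered 2, beside 16.8% of protein-coding genes. Another 2 members had a call with sig-7 RNAi alone, beside 7.05% of protein-coding genes, and 0 had one in control alone, beside 6.03%. With 10 genes, these counts are a description, and nothing particular to the members is read from them.

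**Figure D1:**
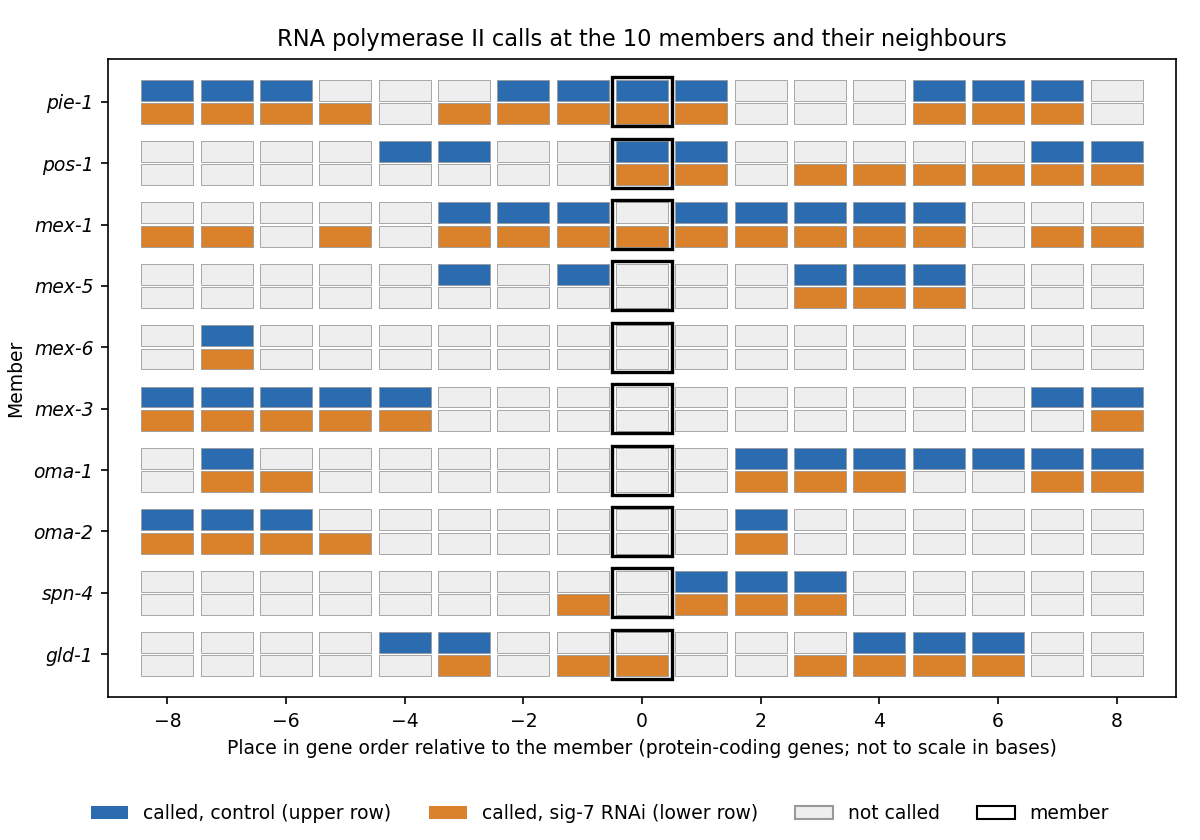
Calls at each of the 10 members (black frame, place 0) and at the 8 protein-coding genes on either side, in the order of the gene table. The upper row of each pair is control and the lower row sig-7 RNAi, coloured where the gene was called. pie-1 and pos-1 are filled in both rows, mex-1 and gld-1 in the lower row alone, and the frames of the other 6 are empty.

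pie-1 was called in both conditions and lay within a called stretch. PIE-1 is inherited by the germline blastomeres and is needed there to keep somatic genes silent. Its neighbours in gene order, tat-1, which encodes a phospholipid translocase, and snr-6, which encodes a spliceosomal Sm protein, were also called in both conditions. The stretch of adjacent protein-coding genes called in control that holds pie-1 had 4 genes, and that in sig-7 RNAi had 5. Over all called protein-coding genes, the median gene lay in a stretch of 3 in control (quartiles 2 and 4) and of 4 in sig-7 RNAi (quartiles 2 and 6). Since 1 broad peak can cover several genes, a call at pie-1 cannot be told apart from polymerase on tat-1 or snr-6 that extends across it.

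pos-1, called in both conditions, stood in a shorter stretch. POS-1 represses or permits translation of maternal mRNAs such as glp-1, nos-2 and apx-1 in posterior cells. The stretch held 2 genes in either condition, pos-1 and the adjacent lmd-3, and the neighbour on the other side, vha-18, was not listed. A shared neighbour of this kind was common: among the 3360 protein-coding genes that shared a call between conditions, 82.0% had at least 1 adjacent gene called in both. Among the 4564 protein-coding genes with a control call, 73.6% kept it under sig-7 RNAi, as did pie-1 and pos-1.

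mex-1 was called in sig-7 RNAi embryos and not in control, in the middle of genes called in both. MEX-1 is needed to restrict germline factors, PIE-1 among them, to the posterior daughters, and mutants make excess muscle. In control, 3 adjacent genes on its one side, W03C9.2, rab-7 (a small GTPase of late endosomes) and W03C9.5, were called. On its other side 5 were called, among them acbp-6, nosr-1 and ash-2 (a subunit of histone methyltransferase complexes). In sig-7 RNAi the same 8 genes and mex-1 formed a single called stretch of 9. Among the 1408 protein-coding genes with a call under sig-7 RNAi alone and a neighbour on either side, 101 (7.17%) lay between neighbours that were both called in both conditions, as mex-1 did. Of 1204 genes called in control only, 26 (2.16%) lay so. Polymerase on mex-1 itself and a spread of the neighbouring peaks cannot be told apart, since the calls give no position within the gene.

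gld-1 was also called in sig-7 RNAi and not in control, but beside a gene with the same change. GLD-1 represses translation of oocyte mRNAs during meiotic prophase and is itself absent from mature oocytes. Its neighbour T23G11.4 was called in sig-7 RNAi only, which made a stretch of 2. The neighbour on the other side, T23G11.10, was not listed. The nearest gene called in control was 3 places away. Of the genes called in sig-7 RNAi only, 48.9% of 1409 had an adjacent gene with that same call. For genes called in control only, the matching share was 53.6% of 1204. Of the genes called in sig-7 RNAi only, 56.7% of 1408, gld-1 among them, had no neighbour called in both conditions. For control only this was 74.8% of 1204. Among the 15419 protein-coding genes not called in control, 9.14% had a call under sig-7 RNAi (8.69 to 9.6), beside 2 of the 8 members not called in control.

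**Figure D2:**
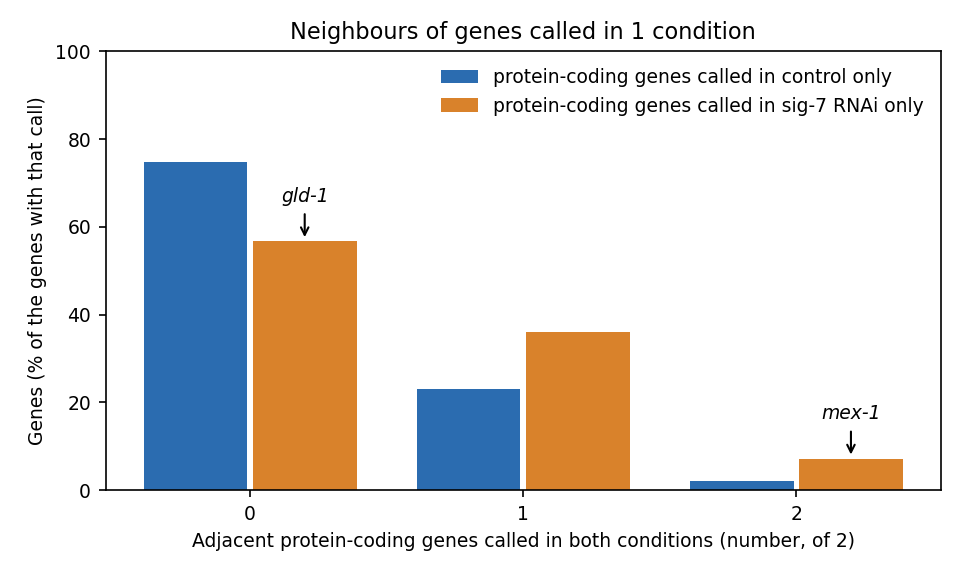
Share of protein-coding genes called in control only (1204 genes) or in sig-7 RNAi only (1408 genes) by how many of their 2 neighbours had calls in both conditions. Arrows mark where the members mex-1 (2 such neighbours, with 7.17% of genes) and gld-1 (0 such neighbours, with 56.7%) fall.

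The 3 anterior genes gave no call in either condition. MEX-5 and MEX-6 are near-redundant proteins that the PAR system polarises and clear germline factors from anterior cells, and MEX-3 represses pal-1 mRNA there. Of the 10 members, mex-6 had the fewest called genes around it, among chemoreceptor genes of the sra family, with 1 of 16 surrounding genes called in control and in sig-7 RNAi and the nearest called gene 7 places away. mex-3 lay 4 places from the nearest called gene. mex-5 adjoined rec-8, the meiotic cohesin gene, which was called in control only. The median protein-coding gene that was not listed lay 3 places from a called one (quartiles 1 and 6), and 70.1% of protein-coding genes were not listed.

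oma-1, oma-2 and spn-4 were not listed. Like mex-5, they lay as close to a called gene as many unlisted protein-coding genes did (median 3 places, quartiles 1 and 6). OMA-1 and OMA-2 act redundantly in oocyte maturation and are degraded after the first division, and SPN-4 controls translation of skn-1, glp-1 and nos-2 mRNA in the early embryo. oma-1 and oma-2 each lay 2 places from the nearest called gene, with spr-2 and vars-1 (valyl-tRNA synthetase) in between. spn-4 stood between ZC404.15, called in sig-7 RNAi only, and spe-39, called in both conditions. Of 14000 protein-coding genes that were not listed and had a neighbour on either side, 309 (2.21%) had both neighbours called in sig-7 RNAi, as spn-4 did. A peak in 1 replicate, or one that overlapped too little of the gene, gives no call, and the table shows neither.

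The list of targets holds 15 maternal or germline genes that the members regulate or that act in the pathways they control. Of these, 7 (46.7%) were called in control and 8 (53.3%) in sig-7 RNAi, beside 22.8% and 23.9% of protein-coding genes. The 6 called in both were egg-1, fog-1, tra-2, the Wnt gene mom-2, the posterior homeobox gene pal-1 and the endomesoderm regulator skn-1. mei-1, which encodes the katanin of the meiotic spindle, was called in control only. The Notch receptor gene glp-1 and cep-1, the p53 homologue, had a call under sig-7 RNAi alone. The other 6, among them nos-2, zif-1 and the yolk receptor gene rme-2, were not listed.

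Kinases, polarity proteins and ubiquitin ligase subunits that place, phosphorylate or degrade the member proteins were mostly called in both conditions. Of 18 genes, 13 were called in control and 13 in sig-7 RNAi (72.2% each), and 11 in both, beside 22.8%, 23.9% and 16.8% of protein-coding genes. The shared ones included cdk-1, cul-1, cul-2, elb-1, gsk-3 and kin-19, and also mbk-2, the kinase that marks OMA-1 for degradation. par-1, the posterior polarity kinase that acts on MEX-5, and skr-1 were called in control only. The polo kinase gene plk-1, whose product binds MEX-5, and the ring finger gene rbx-1 had one under sig-7 RNAi alone. The list of transcription, chromatin and SUMO factors linked to PIE-1 and the OMA proteins had 10 of 14 genes called in each condition (71.4%) and 9 in both, including ama-1, cdk-12, cit-1.2, gei-17, hda-1 and let-418. taf-4, whose product OMA-1 and OMA-2 bind, was among the 9. cdk-9, a kinase of the polymerase tail, was called in control only, and ubc-9, the SUMO-conjugating enzyme, in sig-7 RNAi only.

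Among the 5 lists, the other germline regulators of RNA had the shares of calls nearest to those of the members. With 10 members, no likeness is read from this. Of 33 genes, 9 (27.3%) were called in control and 13 (39.4%) in sig-7 RNAi, beside 20.0% and 40.0% of the members and 22.8% and 23.9% of protein-coding genes. Those called in both included cey-4, etr-1, gld-4, gls-1, ifet-1 and larp-1. The helicase gene cgh-1 was called in control only. The 5 called in sig-7 RNAi only were puf-8 (a Pumilio protein), rnp-8 (a partner of the poly(A) polymerase GLD-2), fog-2 (the F-box partner of GLD-1), ife-3 (a cap-binding protein) and ccf-1 (a deadenylase). The 19 that were not listed included the Pumilio genes fbf-1 and fbf-2. These are near-identical copies, and how reads shared by them were counted was not tested. Of 16 relatives in sequence, 10 (62.5%) were called in control and 9 (56.2%) in sig-7 RNAi. Those called in both included fubl-1, fubl-2, fubl-3, rsp-3, sfa-1 and moe-3, a CCCH relative of the OMA genes. Those called in control only were ccch-3, exc-7 and asd-2, a STAR relative of gld-1. ccch-2 and dct-13 had a call under sig-7 RNAi alone.

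**Figure D3:**
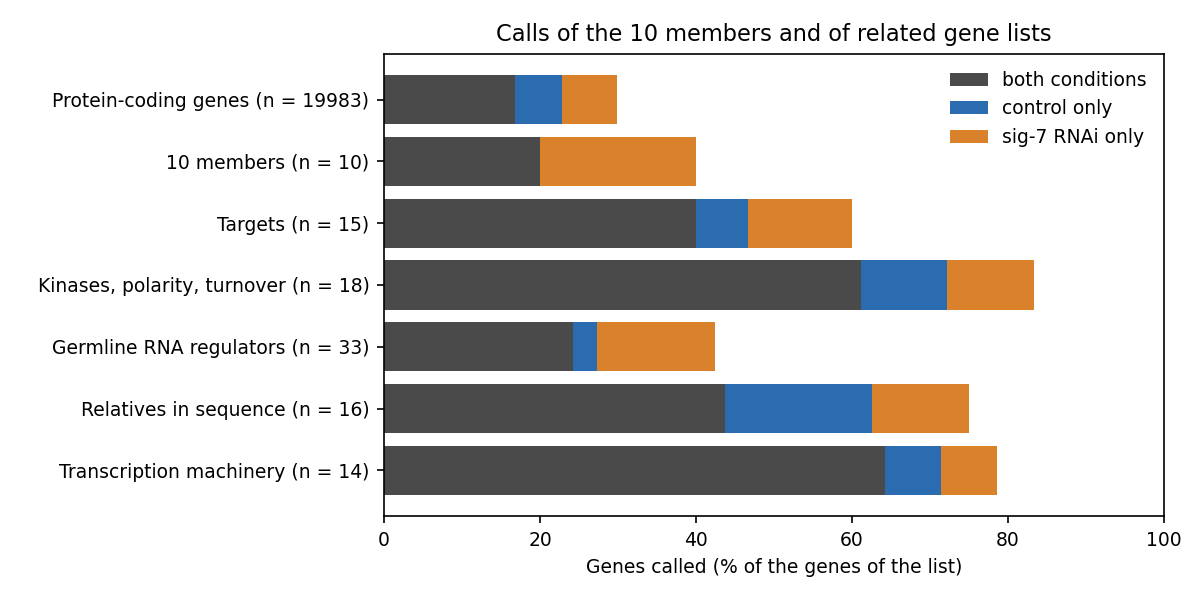
Share of genes called, in percent, among all 19983 protein-coding genes, the 10 members and 5 lists of genes related to them, split into genes called in both conditions (grey), in control only (blue) and in sig-7 RNAi only (orange). The members have no control-only segment, beside 6.03% of protein-coding genes. Called in control were 20.0% of the members, 27.3% of the germline RNA regulators and 22.8% of protein-coding genes. In sig-7 RNAi these shares were 40.0%, 39.4% and 23.9%.

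The labelled material was set against its markers. Of 15 regulators of early lineages, 6 (40.0%) were called in control and 3 (20.0%) in sig-7 RNAi, beside 22.8% and 23.9% of protein-coding genes. The muscle gene hlh-1 was called in both conditions. pha-4, unc-120, elt-1, lin-26 and nhr-25 had a call in control alone, and med-2 and ceh-51 under sig-7 RNAi alone. The other 7, end-1, end-3, med-1, the gut gene elt-2, elt-7, tbx-37 and tbx-38, were not listed. Of 11 yolk and sperm genes, listed in advance as markers of maternal tissue carried over, 0 were called in control, beside 22.8% of protein-coding genes. In sig-7 RNAi 2 (18.2%) were called, vit-1 and spe-42, beside 23.9% of protein-coding genes. The other 9, vit-2 to vit-6 among them, were not listed. For similar genes, such as the vit genes, med-1 and med-2, or tbx-37 and tbx-38, the counting of shared reads was not tested. Neither the counts of yolk and sperm genes nor the share over protein-coding genes measures carried-over tissue. Whether these genes mark the maternal germline was not tested. The part of carried-over maternal tissue in the calls of mex-1 and gld-1 was not tested. ama-1 (F36A4.7) had a call in each condition, whereas sig-7 had a call under its own RNAi alone, and that does not measure its transcript, so the knockdown was not checked.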

How the data were processed

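The authors deposited 1 table for the series, a score of 0 or 1 per gene and condition (a call, of no measured unit). Per the file headers, MACS2 called broad peaks at a cutoff of 0.01, a gene had to overlap a peak by at least 250 bp or 45% of its length, and 1 means an overlap in both replicates. The submitters' processing notes name Bowtie 1.0.1 and build ce10. Which MACS2 version and annotation were used, and whether inputs entered, is not given in the sources used here. Depth is unknown. Names were matched, ignoring case, to the RefSeq table for WBcel235 (8824 of 8922 matched). As that is another build, it gave names and gene order and no coordinates. Counts were made with Python 3.11.15 and pandas 2.3.3. Exact binomial 95% intervals (scipy 1.17.1) treat genes as independent units and hold no replicate error. As 1 broad peak can cover several adjacent genes, calls are not independent and the intervals are too narrow. Neighbours are the nearest protein-coding genes by start, whatever their strand. The code for neighbours and for stretches of genes with the same call was tested on simulated calls. That test did not cover the code for stretches called in a given condition, as reported around pie-1, pos-1 and mex-1. The members and lists were chosen with earlier results of these data known. Named are all 10 members and their neighbours, ama-1, sig-7, list genes called in a single condition and up to 6 of a list called in both. mbk-2, taf-4 and the genes that were not listed, the markers and the other genes of the stretch around mex-1 were named after their calls were seen, and so were the grouping of members by role and the 8 places of the map. 1 listed symbol, ntl-1, had no match. The foreseen tests on counts or signal were not possible on calls. Sequences of the members are not shown.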

Additional observations from a re-analysis of the deposited data

How the results depend on the processing

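The counts of members called did not move with case kept in matching or with isoform letters and synonyms. Counting each stretch of neighbours or each paralogue pair once could not change them, since the 4 called members lie in separate stretches and both pairs are not listed. With the 7 CCCH members alone, which leave out gld-1, the number called in sig-7 RNAi was 3 in place of 4. The number called in sig-7 RNAi only was then 1 in place of 2. The share of genes called depended on the genes read against. Over all genes of the gene table it was 14.4% for control, 13.9% for sig-7 RNAi and 9.52% for both, with 4.88% in control alone and 4.4% under sig-7 RNAi alone. Over the listed genes it was 76.5%, 74.0%, 50.5%, 26.0% and 23.5% in the same order. Every listed gene was called in at least 1 condition, so these shares are raised by that selection. The number of called members with a neighbour of the same call was 3 of 4. Such a neighbour was had by 82.0% of protein-coding genes called in both conditions, 53.6% of control only and 48.9% of sig-7 RNAi only. The number of members was also 3 with 2 genes on either side and with genes of any kind as neighbours. Shares over all genes were not computed for those 2 settings. The genes of more than 1 list, nos-2, zif-1 and puf-5, are not listed in the deposited table, so leaving them out could not move a count of called genes. No paired analysis was possible because the table holds merged calls without a value per replicate, and leaving out a replicate was not run for the same reason.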

Other observations

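The order of the rows in the deposited table, which the headers do not explain, held neighbouring genes together in part. Of 8728 pairs of consecutive rows with both genes in the gene table, 34.5% held genes at most 2 places apart. The row of mex-1 was followed by that of its neighbour acbp-6, and the row of pie-1 by that of its neighbour snr-6. The rows of pos-1 and gld-1 stood beside no neighbour.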
